A study of Mus musculus with 12 samples.

Results

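The genes described here code mainly for the extracellular and membrane layer of the Wnt pathway. These are the Wnt ligands, the frizzled, Lrp5/6 and Ror receptors, the secreted Sfrp, Wif1 and Dkk antagonists, and the R-spondins with their Lgr receptors. The genes of the intracellular scaffolds, *Axin1* and *Axin2*, are included as well. All these genes were chosen by their symbols. The rule found 52 genes among the 22180 that had a probe set with 1 symbol. Of these, 34 had a signal above the level filter and were compared between genotypes, together with all 14550 genes that passed it.

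RNA came from snap-frozen subcutaneous inguinal white adipose tissue (WAT) of 6 R6/2 mice and 6 wild type (WT) littermates. R6/2 mice model Huntington's disease (HD) and carry a transgene of human huntingtin exon 1 with a long CAG repeat, beside their own mouse huntingtin genes. All 12 mice were males of 12 weeks, bred from heterozygous males and C57BL/6 females, and each was hybridised to 1 Affymetrix Mouse Gene 2.0 ST array. The arrays measured whole fat pads, so that fewer cells of a type and less RNA per cell cannot be told apart.

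Wnt proteins are secreted, lipid-modified ligands. With a frizzled receptor and Lrp5 or Lrp6 they stop the Axin complex from marking beta-catenin for degradation, and beta-catenin then acts with TCF/LEF factors on target genes, while Ror receptors serve beta-catenin-independent signals. Sfrp proteins, Frzb and Wif1 bind the ligand, Dkk proteins act on Lrp5/6, and R-spondins with Lgr4 to Lgr6 keep frizzled receptors at the cell surface. In fat, beta-catenin signalling holds precursor cells back from becoming adipocytes, and *Sfrp5* is expressed and secreted by adipocytes.

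Promoter sequences are shown for *Sfrp2*, *Sfrp5* and *Fzd4*, the members with the 3 differences between genotypes that were largest in size. Each window holds the 250 bases before the gene's start, taken from RefSeq on GRCm38.p6 and written 5′ to 3′ on the strand of the gene, with capitals marking the GC box GGGCGG or its reverse complement CCGCCC. The *Sfrp2* window is chr3:83766071-83766320 on the plus strand, that of *Sfrp5* chr19:42202253-42202502 on the minus strand, and that of *Fzd4* chr7:89404116-89404365 on the plus strand.
Sfrp2: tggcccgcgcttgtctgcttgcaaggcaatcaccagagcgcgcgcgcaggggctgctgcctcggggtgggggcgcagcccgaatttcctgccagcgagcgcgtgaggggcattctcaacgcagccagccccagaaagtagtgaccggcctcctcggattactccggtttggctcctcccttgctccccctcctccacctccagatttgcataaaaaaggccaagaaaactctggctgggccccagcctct
Sfrp5: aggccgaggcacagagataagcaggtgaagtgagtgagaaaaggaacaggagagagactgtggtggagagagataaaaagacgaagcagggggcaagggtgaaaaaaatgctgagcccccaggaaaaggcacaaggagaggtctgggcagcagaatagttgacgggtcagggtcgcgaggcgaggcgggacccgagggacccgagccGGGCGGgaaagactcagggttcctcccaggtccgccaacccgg
Fzd4: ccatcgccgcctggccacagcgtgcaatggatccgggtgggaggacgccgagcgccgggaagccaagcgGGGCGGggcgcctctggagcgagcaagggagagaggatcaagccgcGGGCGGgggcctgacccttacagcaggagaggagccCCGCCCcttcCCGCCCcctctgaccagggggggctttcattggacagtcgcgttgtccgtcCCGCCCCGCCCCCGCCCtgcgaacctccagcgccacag
The *Sfrp2* window held 0 GC boxes, the *Sfrp5* window 1 and the *Fzd4* window 7. Over all 32851 windows of this length, 32.7% held at least 1. Of the 52 members 34 had a window, and only 21 of these were among the members that passed the level filter. At least 1 GC box was in 27 of the 37 member windows. The core of the TCF/LEF motif was searched on both strands as CTTTG with A or T in each of the next 2 places. It was found in 4 of the 37 member windows (*Dkk1*, *Fzd7*, *Wnt11* and 1 of 3 windows of *Wnt5b*) and in 14.8% of all windows, and in none of the 3 windows printed here. These matches are a description of the letters and not of binding.

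The arrays differed in the non-adipose tissue that they held. Measured adipocyte markers (13 of 15) averaged 11.22 to 11.90 in R6/2 and 11.12 to 11.94 in WT mice on the log2 scale. Of these markers 11 were lower in R6/2 mice (exact permutation p of their mean = 0.478, two-sided). *Adipoq*, the gene of adiponectin, lay at 10.15 to 11.12 in R6/2 and 10.32 to 10.97 in WT mice. The mean of 12 lymphocyte markers was 5.67 to 5.71 in R6/2 mice 3 and 4 and WT mouse 4, and 8.29 to 10.46 in the other 9 mice. The 15 skeletal muscle markers were all higher in R6/2 mice, with a median log2 difference of 1.03. Their mean ranged from 5.75 to 10.81 in R6/2 and from 5.80 to 10.55 in WT mice (exact permutation p = 0.303, two-sided). The 15 macrophage markers were all lower in R6/2 mice, with means of 7.25 to 8.54 against 7.88 to 8.84 in WT mice (exact permutation p = 0.0476, two-sided). Of 12 progenitor markers 11 were lower, with means of 8.58 to 9.23 against 8.85 to 9.61 in WT mice (exact permutation p = 0.130, two-sided). The part of these tissues in the differences below was not tested, except that each mean was used as a covariate.

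No member of the family was called as different between R6/2 and WT inguinal WAT after correction for all genes. By limma at an adjusted p of 0.05, 0 of 34 members were called, as were 0 of 14550 genes (0.0%), and the lowest adjusted p of a member was 0.632. By Significance Analysis of Microarrays (SAM) at a q of 5%, 0 of 34 were called, against 0.577% of all genes lower and 0.0206% higher in R6/2 mice. At a q of 10% SAM called *Sfrp2* as lower, against 1.04% of all genes lower and 0.0275% higher. At an unadjusted limma p under 0.05, 4 of 34 members were lower in R6/2 mice (*Sfrp2*, *Rspo2*, *Sfrp5* and *Dkk4*) and 0 were higher, against 3.31% of all genes lower and 2.53% higher. In 0 of 34 members were the genotypes without overlap, against 0.186% of all genes with every R6/2 mouse below and 0.199% with every R6/2 mouse above the WT mice.

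Taken over the family, 19 of 34 members were lower and 15 higher in R6/2 mice, against 45.8% of all genes lower and 54.2% higher. Of the lower members, *Rspo4* passed the filter only through the WT mice. Where both genotypes had to pass it, 18 of 33 members were lower. The median log2 difference, R6/2 minus WT, was -0.05 over the members and 0.01 over all genes. The members' differences ran from -0.97 to 0.20, where 1 unit is a change of 2 times. Of the 34, 27 were under 0.2 in size, as were 11902 of all 14550 genes. Only *Sfrp5* differed by more than 0.5, against 400 of all 14550 genes.

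**Figure D1:**
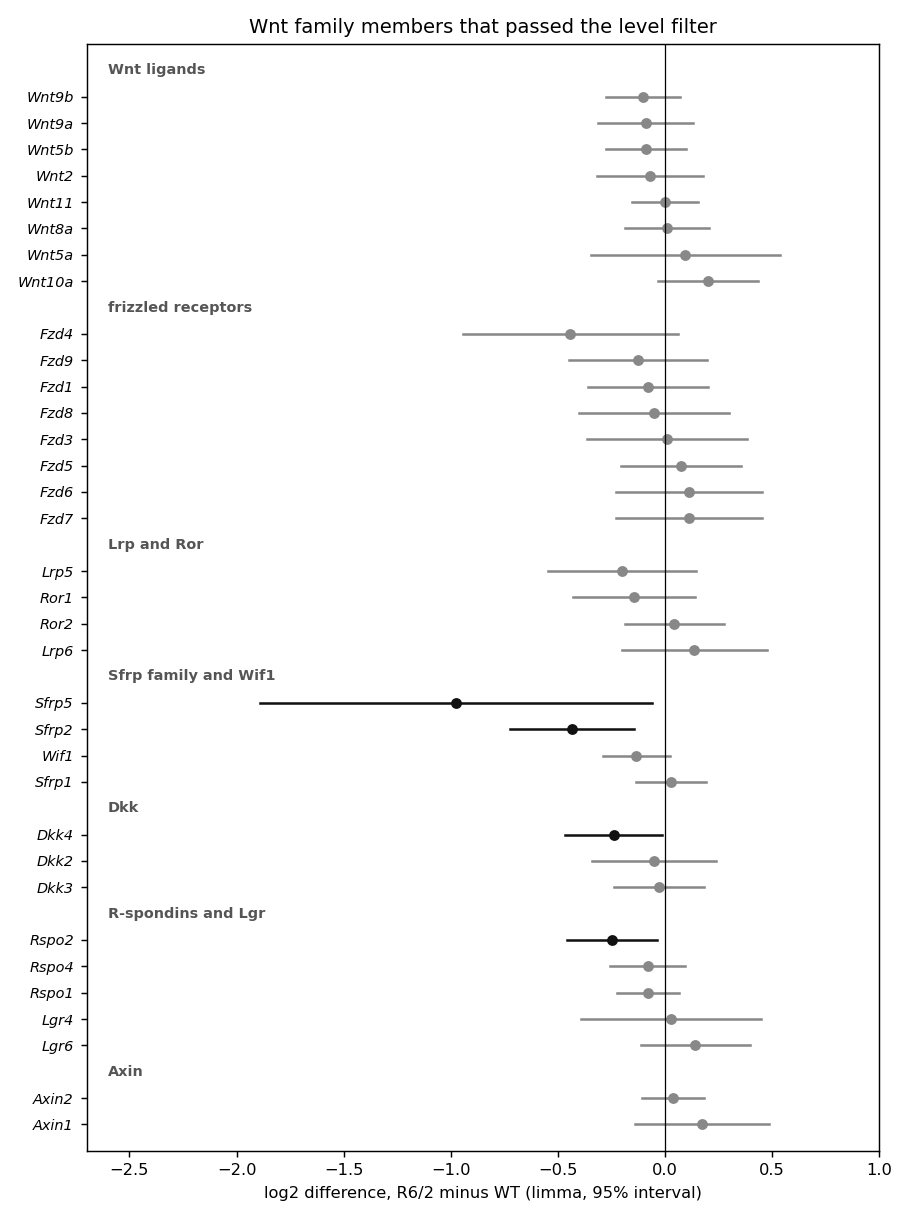
Log2 difference between R6/2 and WT mice (x axis, R6/2 minus WT) for the 34 measured members, grouped by role, with 95% intervals from limma over 6 mice per genotype. Black marks the 4 members with an unadjusted p under 0.05, all lower in R6/2 mice, and grey the members with a higher p.

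Among the Wnt ligands, 8 of 19 passed the level filter, 4 of them lower and 4 higher in R6/2 mice, with a median log2 difference of -0.04. *Wnt10a*, which acts through beta-catenin and restrains the formation of adipocytes, had the smallest p of the ligands. Its log2 signal was 6.16, 6.16, 6.37, 6.25, 6.35 and 6.32 in R6/2 mice 1 to 6, and 6.31, 6.38, 6.07, 5.94, 5.71 and 6.00 in WT mice 1 to 6. WT mice 3 to 6 lay below every R6/2 mouse and WT mouse 2 above them all, so that the WT mice spanned the R6/2 range. The difference was 0.20 (standard error 0.108, limma adjusted p = 0.874, exact permutation p = 0.0866, two-sided). The smallest p that 6 against 6 mice allow in this permutation test is 0.00216.

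*Wnt5b*, a ligand of beta-catenin-independent signalling that promotes adipogenesis in cultured mouse cells, had log2 signals of 5.79, 5.63, 5.81, 5.73, 5.79 and 5.49 in R6/2 mice, and 6.01, 5.63, 5.76, 5.66, 5.77 and 5.94 in WT mice. The genotypes overlapped through most of their range, and the difference was -0.09 (standard error 0.086, 95% interval -0.28 to 0.10, limma adjusted p = 0.927). *Wnt5a*, its close relative, differed by 0.09 with a wide interval of -0.35 to 0.53, and its highest R6/2 value, 6.94, was that of R6/2 mouse 4. The other measured ligands were *Wnt2*, *Wnt8a*, *Wnt9a*, *Wnt9b* and *Wnt11*, and their differences lay between -0.10 and 0.01.

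Of the 10 frizzled receptors 8 passed the filter, 4 lower and 4 higher in R6/2 mice, with a median difference of -0.02. *Fzd4*, which is the receptor of norrin as well as of Wnt ligands, had the largest difference of the receptors. Its log2 signal was 9.91, 10.21, 10.22, 10.95, 9.57 and 9.51 in R6/2 mice, and 10.40, 10.78, 9.95, 10.82, 10.54 and 10.55 in WT mice. R6/2 mice 1, 5 and 6 lay below every WT mouse, whereas R6/2 mouse 4 had the highest value of all 12. The difference of -0.44 (standard error 0.231, limma adjusted p = 0.869, exact permutation p = 0.108, two-sided) was about the size of the standard deviation within genotypes, 0.44. Without R6/2 mouse 4 it was -0.62 with a SAM q of 1.57%, in a comparison that called 2.84% of all genes lower. With any other single mouse left out the SAM q of *Fzd4* was at least 13.5%, and its difference stayed negative. With the progenitor marker mean as a covariate the difference was -0.14.

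*Fzd6*, a frizzled receptor of planar cell polarity, was also highest in R6/2 mouse 4. Its R6/2 values of 6.44 to 7.37 reached beyond the WT values of 6.58 to 6.91 on both sides, 3 mice below and 2 above, for a difference of 0.11 (standard error 0.157). *Fzd1*, *Fzd3*, *Fzd5*, *Fzd7*, *Fzd8* and *Fzd9* had differences of -0.13 to 0.11. None of the frizzled receptors had an unadjusted limma p under 0.05.

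The co-receptors *Lrp5* and *Lrp6* and the receptor tyrosine kinases *Ror1* and *Ror2* were all measured. *Lrp5* gave 7.93, 7.98, 8.16, 8.63, 7.76 and 7.61 in R6/2 mice, and 8.44, 8.09, 8.01, 8.51, 8.09 and 8.14 in WT mice. R6/2 mice 1, 2, 5 and 6 lay below every WT mouse and R6/2 mouse 4 above them all, as it did in *Fzd4*. The difference was -0.20 (standard error 0.160, limma adjusted p = 0.909, exact permutation p = 0.275, two-sided). It was -0.32 without R6/2 mouse 4 (SAM q = 9.41%) and -0.12 without R6/2 mouse 6. *Lrp6* differed by 0.14 (standard error 0.156), and its 2 probe sets, summarised separately, differed by 0.13 and 0.14. *Ror1* and *Ror2*, which bind Wnt5a, differed by -0.15 and 0.04.

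The antagonists that bind the ligand held both the lowest limma p and the largest difference of the family. *Sfrp1*, *Sfrp2*, *Sfrp5* and *Wif1* were measured, 3 of 4 were lower in R6/2 mice, and the median was -0.28. *Sfrp2* codes for a secreted frizzled-related protein that adipose precursor cells and other fibroblasts make. Its log2 signal was 6.21, 6.19, 5.86, 5.78, 5.92 and 6.19 in R6/2 mice, and 6.44, 6.61, 6.64, 6.50, 5.91 and 6.65 in WT mice. All R6/2 mice lay below WT mice 1, 2, 3, 4 and 6, while WT mouse 5 lay among the R6/2 mice. The difference was -0.43 (standard error 0.134, 95% interval -0.72 to -0.14), a signal 1.35 times higher in WT than in R6/2 mice (limma adjusted p = 0.632, SAM q = 7.23%, exact permutation p = 0.0173, two-sided). Without WT mouse 5 it was -0.54 with a SAM q of 0%, where 0.584% of all genes were called lower.

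The *Sfrp2* value is the median of 2 probe sets whose differences between genotypes were of unlike size. Probe set 17398557 read 6.58, 6.70, 6.40, 6.32, 5.92 and 6.50 in R6/2 mice, and 7.27, 7.12, 7.13, 7.21, 6.39 and 7.45 in WT mice. All WT mice but mouse 5 stood above the highest R6/2 mouse, and over all 12 mice the difference was -0.69 (standard error 0.174, limma adjusted p = 0.566, exact permutation p = 0.0108, two-sided). In a fit of all 15328 probe sets without merging it had a SAM q of 1.76%, where 0.62% of probe sets were called lower and 0.0326% higher. Probe set 17406275 read 5.83, 5.68, 5.33, 5.24, 5.92 and 5.89 in R6/2 mice, and 5.62, 6.09, 6.15, 5.79, 5.43 and 5.86 in WT mice. Here the genotypes overlapped, with a difference of -0.17 (standard error 0.155, SAM q = 100%). Its means, 5.65 in R6/2 and 5.82 in WT mice, were close to the level limits of 5.44 and 5.45, and R6/2 mice 3 and 4 and WT mouse 5 lay under theirs. The 95% intervals of the 2 probe sets, -1.07 to -0.32 and -0.51 to 0.16, overlapped, and the probe sets were not tested against each other. *Sfrp2* thus passed the SAM threshold by 1 probe set and not by the other or by their median. It also passed where the probe set with the highest mean stood for each gene (0.667% of all genes lower) and where the level limit was raised by 1, which left only probe set 17398557 (0.964% lower). With array weights in limma, the merged difference was -0.24 (limma adjusted p = 0.347) and no longer had an unadjusted p under 0.05.

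**Figure D2:**
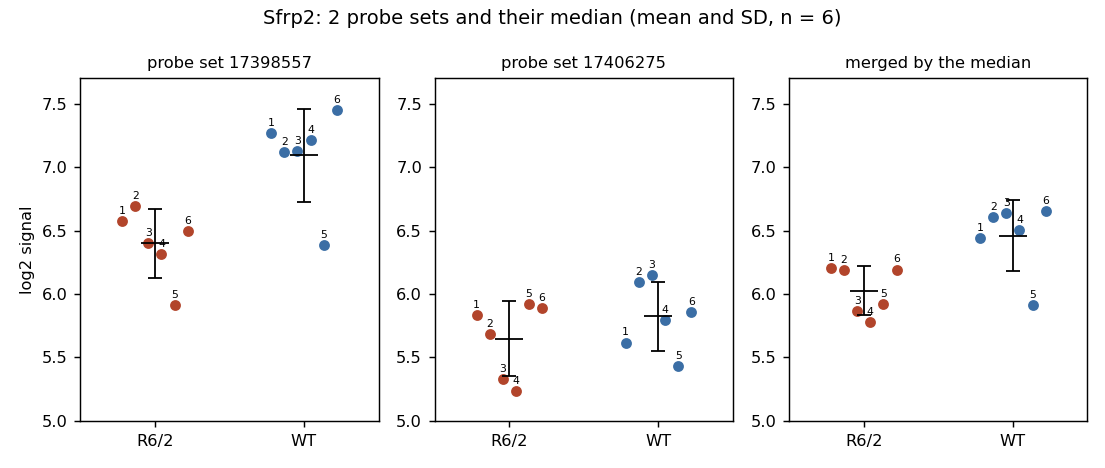
Log2 signal (y axis) of the 2 probe sets of *Sfrp2* and of their median in each R6/2 (left) and WT (right) mouse, numbered as in the labels, with mean and SD over 6 mice. In probe set 17398557 the WT mice other than mouse 5 sit between 7.12 and 7.45, above the R6/2 mice at 5.92 to 6.70, and in probe set 17406275 the genotypes overlap.

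*Sfrp5*, made by adipocytes and a binder of Wnt5a, had the largest difference and the largest spread of the family. Its log2 signal was 4.99, 5.28, 5.62, 7.10, 5.44 and 5.38 in R6/2 mice, and 5.90, 7.60, 7.28, 7.25, 6.08 and 5.55 in WT mice. R6/2 mice 1, 2, 5 and 6 lay below every WT mouse, R6/2 mouse 4 lay close to the 3 highest WT mice, and WT mice 1, 5 and 6 lay well below the other WT mice. The difference was -0.97 (standard error 0.421, 95% interval -1.89 to -0.06), a signal 1.96 times higher in WT than in R6/2 mice (limma adjusted p = 0.839, SAM q = 16.6%, exact permutation p = 0.0606, two-sided). Without R6/2 mouse 4 the SAM q was 0.633%, but the other 5 R6/2 mice averaged 5.34, under the level limit of 5.44, so no size is given for that comparison. The mean of all 6 R6/2 mice, 5.63, was close to this limit.

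*Sfrp1*, a frizzled-related antagonist, showed no such pattern. It gave 6.29, 6.40, 6.50, 6.49, 6.31 and 6.18 in R6/2 mice, and 6.29, 6.33, 6.24, 6.50, 6.26 and 6.37 in WT mice. The genotypes overlapped throughout, with a difference of 0.03 (standard error 0.075, 95% interval -0.13 to 0.19, limma adjusted p = 0.986), whose sign turned in some other settings. *Wif1*, Wnt inhibitory factor 1, differed by -0.13 (standard error 0.072, limma adjusted p = 0.874), and 3 of the R6/2 mice had values under the lowest WT value.

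Of the Dkk antagonists, *Dkk2*, *Dkk3* and *Dkk4* were measured and all 3 were lower in R6/2 mice, with a median of -0.05. *Dkk4*, an inhibitor that binds Lrp5/6, had log2 signals of 5.52, 5.59, 5.86, 5.38, 5.78 and 5.28 in R6/2 mice, and 5.86, 5.83, 5.66, 6.00, 5.76 and 5.74 in WT mice. R6/2 mice 1, 2, 4 and 6 lay below every WT mouse, and the difference was -0.24 (standard error 0.104, limma adjusted p = 0.839, SAM q = 33.1%, exact permutation p = 0.0455, two-sided). The means, 5.57 in R6/2 and 5.81 in WT mice, were close to the level limits of 5.44 and 5.45, and R6/2 mice 4 and 6 lay under theirs. *Dkk2* and *Dkk3* differed by -0.05 and -0.03. Dkk3, the divergent member of the family, is not a typical Lrp5/6 inhibitor.

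All 3 measured R-spondins were lower in R6/2 mice and both measured Lgr receptors were higher, by -0.08 and 0.08 in the median. This count includes *Rspo4*, whose direction was fixed by the filter as described below, and the R-spondin median is the difference of *Rspo4*. *Rspo2* gave 5.50, 5.64, 5.60, 5.62, 5.52 and 5.37 in R6/2 mice, and 5.88, 5.86, 5.76, 5.99, 5.40 and 5.87 in WT mice. The 6 R6/2 mice lay below WT mice 1, 2, 3, 4 and 6 but 5 of them lay above WT mouse 5, the same mouse that stood apart in *Sfrp2*. The difference was -0.25 (standard error 0.097, limma adjusted p = 0.803, SAM q = 24.8%, exact permutation p = 0.0238, two-sided). Without WT mouse 5 it was -0.33 with a SAM q of 2.02%, where 0.584% of all genes were called lower. With any other single mouse left out the SAM q of *Rspo2* was at least 12.2%. The means of *Rspo2*, 5.54 in R6/2 and 5.79 in WT mice, were close to the level limits of 5.44 and 5.45, and R6/2 mouse 6 and WT mouse 5 lay under theirs. WT mouse 5 had a muscle marker mean of 10.55, against 5.80 to 9.22 in the other WT mice. *Rspo4* passed the filter only through the WT mice, with a mean of 5.37 in R6/2 and 5.45 in WT mice, and a gene kept in that way had to be lower in R6/2 mice. *Rspo1* and *Rspo4* both differed by -0.08, *Lgr4* by 0.03 and *Lgr6* by 0.14.

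The 2 Axin scaffolds, which hold the complex that degrades beta-catenin, were both higher in R6/2 mice by their merged values. *Axin1* gave 7.82, 8.03, 7.63, 7.63, 8.20 and 7.81 in R6/2 mice, and 7.48, 7.88, 8.19, 7.45, 7.54 and 7.56 in WT mice. WT mice 1, 4, 5 and 6 lay below every R6/2 mouse, but WT mouse 3 was second highest of the 12, and the difference of 0.17 (standard error 0.144, limma adjusted p = 0.911, exact permutation p = 0.266, two-sided) was smaller than the SD within genotypes, 0.26. It was 0.27 without WT mouse 3 (limma adjusted p = 0.584, 0.0447 before adjustment) and 0.10 without R6/2 mouse 5. *Axin2*, itself a target of beta-catenin and so a common readout of the pathway, differed by 0.04 (standard error 0.067). Its 2 probe sets went opposite ways, by 0.13 and -0.06, and correlated at -0.54 over the 12 mice.

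**Figure D3:**
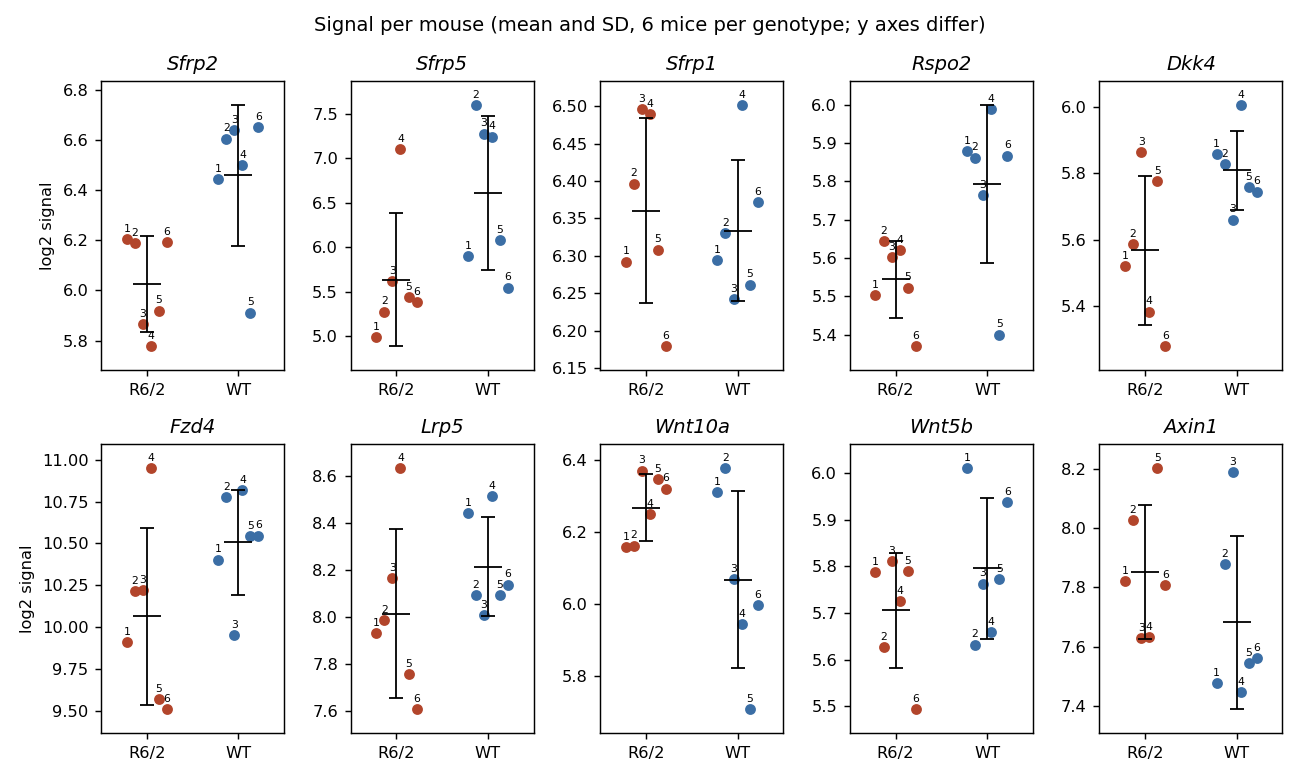
Log2 signal (y axis, a separate scale for each gene) of 10 members in each R6/2 (left, red) and WT (right, blue) mouse, numbered as in the labels, with mean and SD over 6 mice. In *Sfrp2* and *Rspo2* WT mouse 5 lies with the R6/2 mice, at 5.91 and 5.40, and in *Sfrp5* and *Fzd4* R6/2 mouse 4 lies with the WT mice, at 7.10 and 10.95.

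The members varied between mice of 1 genotype about as much as other genes. Their median standard deviation within genotypes was 0.219, against 0.210 over all genes. In 7 of 34 members the difference between genotypes exceeded that gene's own SD. The share over all genes is not given, so this count cannot be read as particular to the family. The SD was largest in *Sfrp5* (0.81), *Fzd4* (0.44), *Wnt5a* (0.38) and *Lgr4* (0.36), and smallest in *Axin2* and *Rspo1* (both 0.09). Many members had a low signal: 22 of 34 (64.7%) had their higher genotype mean within 1 log2 unit of the level limit, against 29.9% of all genes.

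Most members were high, for their genotype, in the 3 mice with low lymphocyte markers. R6/2 mice 3 and 4 each had 28 of 34 members above the R6/2 mean, against 7 to 14 in the other R6/2 mice. WT mouse 4 had 27 above the WT mean, against 11 to 18 in the other WT mice. Of all genes, 44.3% to 57.4% lay above the mean of their genotype in a given mouse. R6/2 mouse 4 had the highest value of all 12 mice in 9 members, among them *Fzd4*, *Fzd6*, *Fzd9*, *Lrp5* and *Wnt5a*, against 14.3% of all genes. R6/2 mouse 3 was highest in 7 members, against 20.4% of all genes, and WT mouse 4 in 6, against 11.3%. The same 3 mice had the highest adipocyte marker means of their genotype, 11.75 and 11.90 in R6/2 mice 3 and 4, against 11.22 to 11.55 in the other R6/2 mice, and 11.94 in WT mouse 4, against 11.12 to 11.82 in the other WT mice. Without these 3 mice SAM called *Sfrp5* and *Fzd4* as lower, against 1.92% of all genes.

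**Figure D4:**
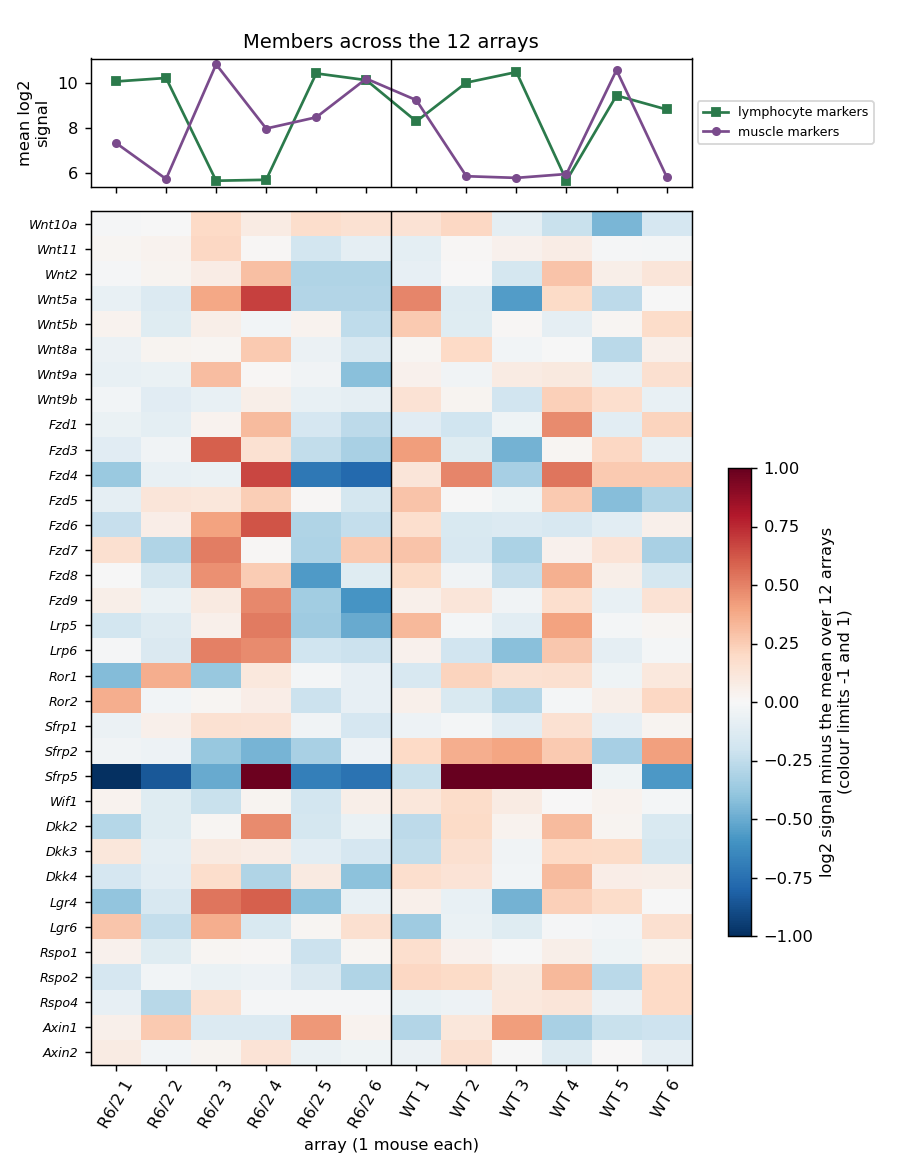
Deviation of each of the 34 members (rows, grouped by role) from its mean over 12 arrays on the log2 scale, by array (columns, R6/2 then WT), with colours that saturate at -1 and 1, under the mean log2 signal of lymphocyte and muscle markers in the same arrays. R6/2 mice 3 and 4 and WT mouse 4, at a lymphocyte mean of 5.67 to 5.71, have most members in red, and *Sfrp5* has the strongest colours.

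With the lymphocyte mean as a covariate, 6 members were lower in R6/2 mice at an unadjusted limma p under 0.05, *Fzd4* and *Lrp5* beside the 4 named above, against 6.62% of all genes, and 0 were higher, against 5.59%. With the muscle mean 1 was lower (*Sfrp2*), against 2.38% of all genes, and 0 higher, against 2.14%. With the progenitor mean 1 was lower (*Sfrp2*), against 1.51%, and 0 higher, against 1.7%, and with the macrophage mean 0 were lower, against 1.95%, and 0 higher, against 1.87%. With the adipocyte mean 2 were lower (*Rspo2* and *Sfrp2*), against 5.11%, and 1 was higher (*Lrp6*), against 7.6%. No member reached a limma adjusted p of 0.05 in any of these fits. The difference of *Sfrp2* was -0.43 with the lymphocyte, -0.34 with the muscle, -0.28 with the macrophage, -0.41 with the progenitor and -0.47 with the adipocyte mean. That of *Sfrp5* was -0.99, -0.84, -0.85, -0.62 and -0.96 in the same order. Both stayed negative in each fit.

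**Figure D5:**
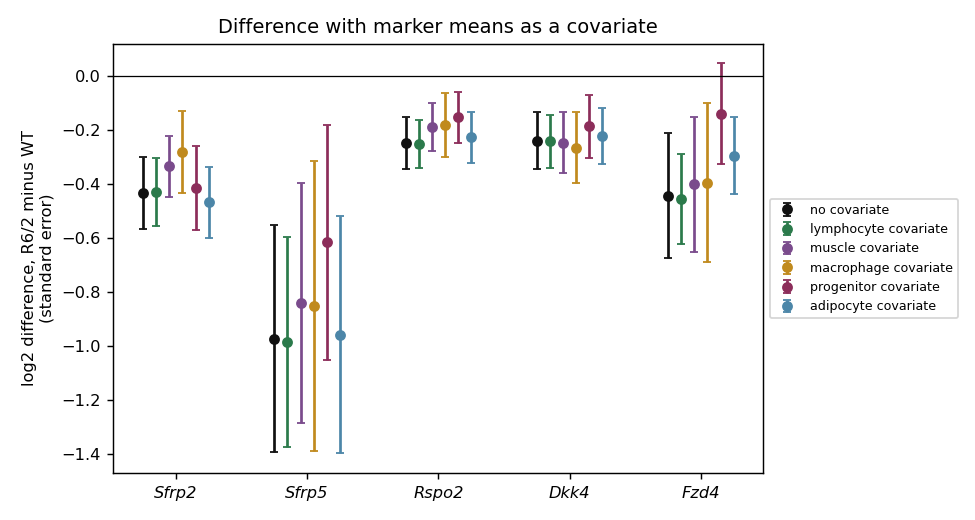
Log2 difference, R6/2 minus WT (y axis, bars are standard errors from limma over 12 arrays), of 5 members without a covariate and with the mean of each marker list as a covariate. All 5 members are below 0 in every fit, and *Fzd4* is closest to 0, at -0.14, with the progenitor mean.

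Of 89 other genes of the pathway 83 were measured, and none was called after correction. Of these, 39 were lower and 44 higher in R6/2 mice, with a median difference of 0.00, and 0 were called by limma at an adjusted p of 0.05 or by SAM at a q of 5%. The lower genes include *Sost* and *Ccn4*, kept only through the WT mice, and the higher ones *Musk*, kept only through the R6/2 mice. At an unadjusted limma p under 0.05 1 was lower, against 3.31% of all genes, and 2 were higher, against 2.53%.

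Of the 7 measured genes of ligand secretion and binding to the cell surface, 4 were lower, among them the proteoglycan *Sdc1* (-0.24, standard error 0.122), and 3 were higher, among them the glypicans *Gpc3* (0.30, standard error 0.280) and *Gpc6* (0.19, standard error 0.112). Of 20 genes at the membrane 9 were lower and 11 higher. *Sost* passed the filter only through the WT mice and *Musk* only through the R6/2 mice. The filter thus fixed the direction of *Sost* and nearly fixed that of *Musk*. *Lrp1*, a large endocytic receptor of the lipoprotein receptor family, gave 9.19, 9.44, 9.61, 9.83, 8.90 and 8.83 in R6/2 mice, and 9.56, 9.74, 9.32, 10.21, 9.68 and 10.14 in WT mice. R6/2 mice 1, 5 and 6 lay below every WT mouse, and the difference was -0.47 (standard error 0.198, limma adjusted p = 0.830, SAM q = 21.3%). *Musk*, a kinase of the neuromuscular junction, differed by 0.58 (standard error 0.339), with R6/2 values of 4.62 to 6.69 against 4.58 to 5.53 in WT mice, where its mean was under the level limit. *Igfbp4*, a binder of insulin-like growth factors, differed by -0.17 (standard error 0.093).

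Among 31 cytoplasmic genes 11 were lower and 20 higher in R6/2 mice. *Dact1*, a partner of Dishevelled, gave 6.43, 6.31, 6.05, 6.26, 6.40 and 5.86 in R6/2 mice, and 5.92, 5.99, 6.22, 5.89, 5.88 and 5.75 in WT mice. R6/2 mice 1, 2, 4 and 5 lay above every WT mouse, for a difference of 0.28 (standard error 0.110, limma adjusted p = 0.813). *Ctnnb1*, the gene of beta-catenin, differed by 0.12 (standard error 0.062) and *Ppp3ca*, the catalytic subunit of calcineurin, by 0.21 (standard error 0.107).

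Of 18 nuclear genes 10 were lower and 8 higher. The Groucho-family co-repressor *Tle2* differed by 0.19 (standard error 0.088, limma adjusted p = 0.845), its relative *Tle3* by -0.24 (standard error 0.146) and *Bcl9l*, a co-activator of beta-catenin, by -0.11 (standard error 0.065). Of 13 measured target genes of the pathway 8 were lower and 5 higher, with a median of -0.08. *Ccn4* passed the filter only through the WT mice and so had to be among the lower. The median is the difference of *Lef1* (standard error 0.894). Its signal was lowest in R6/2 mice 3 and 4 and WT mouse 4, the mice with low lymphocyte markers, and their part in it was not tested. *Nkd1*, a feedback inhibitor, differed by -0.29 (standard error 0.162), the matricellular protein gene *Ccn5* by -0.22 (standard error 0.117) and *Bambi*, a decoy receptor for TGF-beta ligands, by 0.18 (standard error 0.120). None of these target genes had an unadjusted limma p under 0.05.

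The 18 members that did not pass the level filter were 11 ligands (*Wnt1*, *Wnt2b*, *Wnt3*, *Wnt3a*, *Wnt4*, *Wnt6*, *Wnt7a*, *Wnt7b*, *Wnt8b*, *Wnt10b* and *Wnt16*), *Fzd2*, *Fzd10*, *Sfrp4*, *Frzb*, *Dkk1*, *Rspo3* and *Lgr5*. Their values lay between 3.27 and 5.96 in single arrays, and their means between 3.45 and 5.45. No difference between genotypes is given for these single genes.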

How the data were processed

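RNA of inguinal WAT from 6 R6/2 and 6 WT mice was hybridised to Affymetrix Mouse Gene 2.0 ST arrays, 1 for each mouse. After a check of RNA integrity, the authors ran RMA in Expression Console 1.1.2 over the arrays and deposited 1 log2 value per probe set. These values ranged from 0.658 to 13.9 over 41345 probe sets, and array medians from 5.75 to 5.87. No probe set filter or merging is in them. RMA forces the arrays to 1 common distribution, so differences are relative to the other genes of the same array.

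Here, genes were named through the platform annotation, in which 23521 probe sets had 1 symbol, 1820 several and 16004 none, and only the first entered. The level filter kept a probe set whose mean in at least 1 genotype exceeded the median of all symbol-free probe sets (5.44 in R6/2, 5.45 in WT). The study set its limit from negative controls, which could not be told from other symbol-free probe sets. This left 15328 probe sets of 14550 genes, and the 595 genes with several were merged by the median. R6/2 minus WT was fitted with limma 3.58.1 in R 4.3.3 (lmFit, eBayes, Benjamini-Hochberg over all genes, threshold 0.05) without covariates. SAM, the study's method, was computed over all 924 assignments of mice (constant s0 0.0546, share of unchanged genes 0.972, q threshold 5%). Single members had exact permutation tests, two-sided. Both methods were run on simulated data with independent noise in each gene. Those data lack the tissue differences that many genes share in these arrays, so the run does not show how either method handles them. The number of arrays limits the precision, and the labels number the mice without stating litters.

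The members, lists and rules were chosen with earlier results of these data known. Values of every mouse are given for members with a SAM q of at most 5%, an unadjusted limma p under 0.05 or genotypes without overlap, for the smallest p in each role group, and for *Wnt5b* and *Sfrp1*, which the study names. By PCR array of inguinal WAT, the study had *Wnt5b* significantly higher in R6/2 mice, and *Sfrp1* higher without significance. The differences here, by another method, were -0.09 and 0.03. For other pathway genes up to 3 with the smallest p per list are named, and further members were named after their values were seen. Marker lists of endothelial, epithelial and Schwann cells were also computed: 13 endothelial markers averaged 8.08 ± 0.17 in R6/2 and 8.11 ± 0.14 in WT mice, 4 epithelial markers 6.56 ± 0.07 and 6.44 ± 0.06, and 7 Schwann markers 6.74 ± 0.38 and 6.79 ± 0.21 (SD, n = 6 each). In this order the exact permutation p of the mean was 0.751, 0.0152 and 0.816 (two-sided). The p-values of the marker lists were not corrected for the number of lists. Alternatives covered the filter, merging, normalization, variance model, SAM constant, thresholds, marker covariates, the replicate number and leaving out mice. Plots were drawn with Python 3.11.15 and matplotlib 3.10.9.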

Additional observations from a re-analysis of the deposited data

Results flagged for a closer look

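In 2 of the 68 sets of 6 mice examined, 1 mouse stood far from the others of its genotype, which chance alone gives in about 1 in 20 sets. *Sfrp5* was 7.10 in R6/2 mouse 4, against 4.99 to 5.62 in the other R6/2 mice. *Sfrp2* was 5.91 in WT mouse 5, against 6.44 to 6.65 in the other WT mice. R6/2 mouse 4 had a lymphocyte marker mean of 5.71 and WT mouse 5 a muscle marker mean of 10.55, and the part of either in these values was not tested.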

How the results depend on the processing

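The count of members by limma was 0 in every setting run except an unadjusted p of 0.05, which gave 4 members and 3 other pathway genes. SAM at a q of 5% called 1 member (*Sfrp2*) with the level limit raised by 1 (0.964% of all genes lower) and with the probe set of the highest mean (0.667%). It did so too with probe sets not merged (0.62% of probe sets lower), and at a q of 10% in the main setting (1.04% of all genes lower). Without the 3 mice lowest in lymphocyte markers, SAM at a q of 5% called 2 members (*Sfrp5* and *Fzd4*), 2 other pathway genes and 1.92% of all genes as lower. Leaving out 1 mouse gave 0 to 2 members by SAM and 0 to 1 other pathway genes. The 2 members were *Sfrp5* and *Fzd4* without R6/2 mouse 4 (2.84% of all genes lower), and *Sfrp2* and *Rspo2* without WT mouse 5 (0.584% of all genes lower). The SAM q of *Sfrp2* ran from 0% to 22.2% and that of *Sfrp5* from 0.633% to 45.6% over these.

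The median difference of the family turned to 0.00968 over all 52 members without a level filter and to 0.0365 with the progenitor covariate, and lay between -0.0907 and 0.00643 with 1 mouse left out, positive without WT mouse 4. With the limit raised by 1, 6 of 12 members were lower, and with 1 mouse left out 15 to 25 of 34. Of the 34, 28 were lower without the 3 mice lowest in lymphocyte markers (median -0.11), 27 with array weights (median -0.12), 25 with the macrophage covariate (median -0.11) and 13 with the progenitor covariate. The share of all genes lower is not given for these settings, so these counts cannot be read as particular to the family. *Sfrp1* turned to -0.00602 without the 3 mice lowest in lymphocyte markers (SAM q 100%) and to -0.0153 with array weights, and lay between -0.000402 and 0.0631 (SAM q 86.7% to 100%) with 1 mouse left out. The cause of these shifts was not tested.

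The labels do not say whether replicate numbers pair the mice. Deviations of same-numbered mice correlated between -0.78 and 0.78. This cannot settle the question, as the mice also differed widely in lymphocyte and muscle markers. With the number as a block limma called 0 members and 0 other pathway genes, and 2 of all genes. The settings without merging, without the 3 mice and with lymphocyte and muscle covariates together were chosen after seeing the data. Signal near background in most members limits what 6 against 6 arrays can show.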
